A study of Homo sapiens with 40 samples.

Results

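Mitochondrial DNA is transcribed from both of its strands, and 9 of the 37 genes on human chromosome M are encoded on the strand that the annotation calls minus. They are MT-ND6, which encodes a subunit of respiratory complex I, and 8 transfer RNA genes: MT-TP (proline), MT-TE (glutamate), MT-TQ (glutamine), MT-TA (alanine), MT-TN (asparagine), MT-TC (cysteine), MT-TY (tyrosine) and MT-TS1 (serine). The members were taken by strand alone, as every annotated gene on the minus strand of chromosome M, 9 of 58395 genes in the table. Attention was drawn to the strand by the fold changes of MT-ND6, MT-TP and MT-TQ after OL9-119. The set was thus chosen by measured values of that contrast, and values after OL9-119 alone are given as a description without a test. Of the 9 genes, 8 had at least 10 counts summed over the 40 libraries and entered the tests, and MT-TC had no count in any library.

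Light-strand transcription starts at a promoter in the control region and runs through most of the circle as a long precursor, from which transfer RNAs are cut out by RNase P and ELAC2. In this precursor MT-ND6 directly follows MT-TE, with no light-strand transfer RNA gene next to its other end. The RNA polymerase POLRMT, with TFAM and TFB2M, makes these precursors, and the same transcription supplies the primers for replication of the heavy strand. MT-ND6 is the only messenger RNA from this strand, and in human cells it is known to lack a stable poly(A) tail, unlike the heavy-strand messenger RNAs. Most of the remaining light-strand RNA is antisense to heavy-strand genes and is degraded by the SUV3 and PNPase complex.

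The libraries were made from HEK293A, an adherent subclone of a human embryonic kidney line. WT cells and a PARP1-KO line, in which the gene for the DNA damage sensor PARP1 was disrupted by CRISPR/Cas9 and which is 1 clone, each received 5 treatments with 4 replicates, 40 libraries in 10 groups. The treatments were no treatment, 0.1% DMSO, Tpc (topotecan, a poison of the DNA-relaxing enzyme TOP1) at 100 nM in WT and 50 nM in PARP1-KO cells, OL9-119 (an inhibitor of TDP1, which removes trapped TOP1 from DNA) at 5 µM, and Tpc + OL9-119 at these same concentrations. DMSO at 0.1% was present in each drug group, exposure lasted 5 to 5.5 h, and any difference between the genotypes after Tpc is also a difference in dose.

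Library totals were 3455043 to 20379777 counts (median 10656829), and chromosome M took 4.73 to 8.25% of the counts in WT and 3.73 to 4.97% in PARP1-KO libraries. PARP1 itself was at 737 to 887 CPM (counts per 1000000 counts of the TMM-scaled library) in the 20 WT libraries and at 30.4 to 46.6 CPM in the 20 PARP1-KO libraries. NEFL and VIM, which this line is known to express, were at 228 to 364 CPM and 471 to 970 CPM, while the leukocyte gene PTPRC stayed at or below 0.464 CPM and the hepatocyte gene ALB at or below 1.203 CPM. CDH2 was at 29.1 to 63.0, NEFM at 3.38 to 49.6 and PAX2 at 0.0979 to 12.1 CPM, the T cell gene CD3E, the fibroblast gene DCN and the endothelial gene PECAM1 reached at most 0.410, 0.888 and 2.74 CPM, and the collagen gene COL1A1 was at 9.10 to 43.0 CPM. In bulk RNA, fewer mitochondrial genomes per cell and less RNA from each genome cannot be told apart.

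A pair of PARP1-KO libraries went against their labels. Over 319 nuclear genes that passed the test for OL9-119 alone in WT cells, a signed mean log2 level (centred within PARP1-KO, positive in the WT direction) was 0.0660 to 0.141 in the 4 PARP1-KO OL9-119 libraries. The library labelled PARP1-KO DMSO replicate 3 was at 0.0433, while the other PARP1-KO libraries without OL9-119 were at −0.110 to −0.0199. The library labelled PARP1-KO Tpc + OL9-119 replicate 3 was at −0.0778, while replicates 1, 2 and 4 of that group were at 0.0997 to 0.115. Labels were kept as deposited, and comparisons with either group were also computed without both libraries, which are called doubted in what follows. Because they were picked by genes that respond to OL9-119, leaving them out can favour a change after OL9-119.

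The sequences of the transfer RNA genes on which the results turn, MT-TP and MT-TQ, are shown with MT-TS1, which passed no test. MT-TA and MT-TE, which had 0 counts in some but not all groups with OL9-119, are shown as well. Each is written 5′ to 3′ on the minus strand of hg38 with the anticodon in capitals.
MT-TP, chrM:15956-16023: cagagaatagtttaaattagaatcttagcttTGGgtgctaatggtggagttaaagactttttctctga
MT-TQ, chrM:4329-4400: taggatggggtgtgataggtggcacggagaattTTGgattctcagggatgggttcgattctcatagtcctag
MT-TS1, chrM:7446-7514: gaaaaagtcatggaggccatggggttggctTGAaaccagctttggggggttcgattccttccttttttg
MT-TA, chrM:5587-5655: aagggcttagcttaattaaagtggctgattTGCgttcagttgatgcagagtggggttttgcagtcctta
MT-TE, chrM:14674-14742: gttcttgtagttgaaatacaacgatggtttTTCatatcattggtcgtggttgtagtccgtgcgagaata

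MT-ND6 occupies chrM:14149-14673 on the same strand, 525 bases of coding sequence that directly follow MT-TE with 0 bases between them. Its first 60 bases, chrM:14614-14673, are shown with the start codon in capitals because they carry the strand's base bias.
MT-ND6: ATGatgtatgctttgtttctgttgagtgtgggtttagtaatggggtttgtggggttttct
G made up 35.6% and C 7.05% of MT-ND6. The 8 light-strand transfer RNA genes had a median of 28.02% G (23.5 to 36.1%), while the 14 heavy-strand transfer RNA genes had 15.4% (10.3 to 19.1%) and the 12 heavy-strand messenger RNA genes 11.2% (6.28 to 16.2%). The remaining members lie at chrM:5657-5729 (MT-TN), chrM:5761-5826 (MT-TC) and chrM:5826-5891 (MT-TY). MT-TA, MT-TN, MT-TC and MT-TY form a cluster in which MT-TA and MT-TN are 1 base apart, MT-TN and MT-TC 31 bases apart, and MT-TC and MT-TY share 1 base. MT-TP, MT-TQ and MT-TS1 stand alone, at 1213, 1186 and 1554 bases from the nearest gene on their strand. MT-TQ also overlaps the heavy-strand gene MT-TI by 3 bases.

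The members differed widely in how many reads they received. MT-ND6 had 96150 counts over the 40 libraries, 93.9% of the 102423 light-strand counts and 89.7 to 99.8% of them in single libraries. MT-TP had 3496 counts, MT-TQ 1699 and MT-TS1 448. The 5 transfer RNA genes with a close neighbour had fewer: 268 for MT-TE, 251 for MT-TA, 86 for MT-TY, 25 for MT-TN and 0 for MT-TC. The 25 MT-TN counts all came from WT no treatment replicate 1, and the 0 of MT-TC allows up to 0.151 to 0.824 CPM in a library (3 counts, counting error only). The 8 light-strand transfer RNA genes together had 6273 counts, and the 14 heavy-strand ones 801, with 8 of those 14 at 0 in all libraries. Per kilobase, the median level of MT-ND6 was 320 CPM, against 1001 CPM for MT-ND5, its neighbour on the heavy strand, and 850 to 6100 CPM over the 12 heavy-strand messenger RNAs.

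Several features of the assay bear on these levels. The libraries were made from poly(A) RNA with a kit that keeps the strand, transfer RNA genes are shorter than a read, and a read that touches more than 1 gene is not counted, so a count at a transfer RNA gene is not the amount of the mature transfer RNA. MT-ND6 is known to lack a stable poly(A) tail, so its count in poly(A) RNA need not be the amount of its RNA either. The counts followed the strand. Among small RNA gene copies inside expressed genes, 203 of 946 on the same strand as the host had at least 10 counts (21.5%), against 25 of 785 on the opposite strand (3.18%). MT-TS1 lies opposite the untranslated end of the MT-CO1 messenger RNA, and its level per kilobase was a median of 0.173% of MT-CO1 (0 to 0.798%). MT-ND6, which lies opposite the untranslated end of the MT-ND5 messenger RNA, was at a median of 49.3% of MT-ND5 per kilobase (19.3 to 134%).

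Nuclear copies of mitochondrial DNA also matter for reads that match both. MT-TQ has an identical full-length copy at chr1:629499-629570, MT-TS1 at chr1:632617-632685, MT-TA at chr1:630757-630825, MT-TN at chr1:630827-630899 and MT-TE at chr5:94569467-94569535, so their counts are uncertain where the counting could not place a read. The closest copies of MT-TC and MT-TY were 98.485% identical. The closest copy of MT-TP was 91.176% identical over 68 bases, and that of MT-ND6, MTND6P4 at chr5:134924123-134924646, was 95.038% identical over 524 bases. MTND6P4 was at a median of 0.956 CPM (0 to 5.75), far below MT-ND6.

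**Figure D1:**
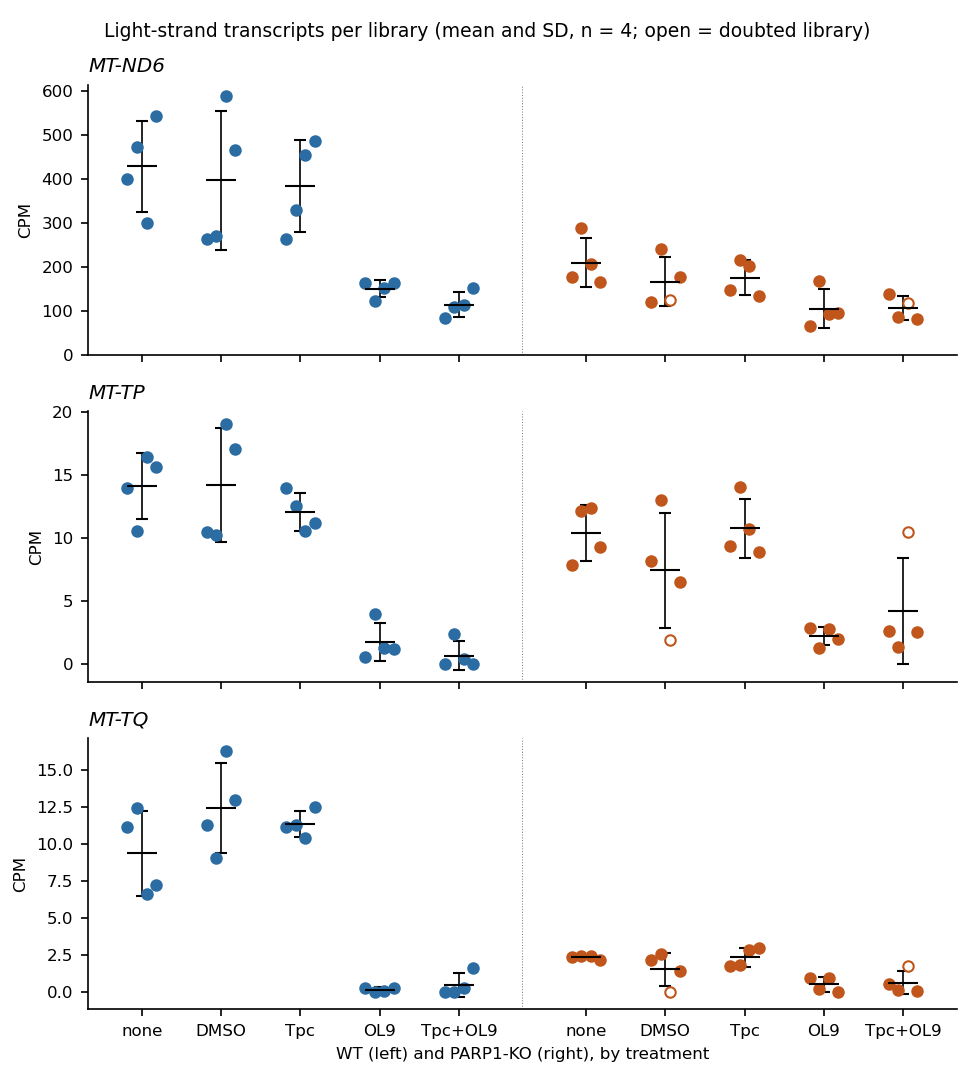
CPM (linear axes) of MT-ND6, MT-TP and MT-TQ in each of the 40 libraries by genotype and treatment (OL9 stands for OL9-119), with bars for the mean and SD of the 4 libraries of a group and open symbols for the libraries that went against their labels. The WT libraries that received OL9-119, alone or in combination, sit at 85.7 to 165 CPM for MT-ND6 and at 0 to 1.65 CPM for MT-TQ, below the remaining WT libraries.

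MT-ND6 fell into a high and a low set of WT groups. In replicates 1 to 4 it was at 399, 473, 301 and 542 CPM without treatment, 264, 271, 588 and 467 CPM with DMSO and 265, 329, 454 and 487 CPM with Tpc. It was at 164, 123.99, 153 and 165 CPM with OL9-119 and at 85.7, 108.7, 113.9 and 152 CPM with Tpc + OL9-119. None of the 8 WT libraries with OL9-119 reached the lowest of the 12 without it, as the plot of CPM by library shows, and the same held for MT-TP, MT-TQ and 0.207% of all genes tested. The libraries with OL9-119 alone, for which these genes had been noted, are among the 8, so this separation is a description and not a test. In PARP1-KO cells the levels were lower and closer together, at 178, 289, 208 and 166 CPM without treatment, 121.6, 241, 126.4 and 177 CPM with DMSO and 148, 217, 203 and 136 CPM with Tpc. With OL9-119 they were 65.5, 170, 93.6 and 95.9 CPM, and with Tpc + OL9-119 139, 87.2, 119.4 and 83.5 CPM. Ordered by mean, the 10 groups ran from WT without treatment at 428.8 ± 103.2 CPM (SD, n = 4), WT DMSO at 397 ± 158 and WT Tpc at 383.5 ± 104.2, through PARP1-KO without treatment at 211 ± 55.1, PARP1-KO Tpc at 175.9 ± 39.98 and PARP1-KO DMSO at 167 ± 55.6, to WT OL9-119 at 151 ± 19.2, WT Tpc + OL9-119 at 115.1 ± 27.5, PARP1-KO Tpc + OL9-119 at 107 ± 26.5 and PARP1-KO OL9-119 at 106 ± 44.5. Each pair of neighbours in that order overlapped in its library values. Without the 2 doubted libraries the PARP1-KO means were 179.9 ± 59.6 CPM for DMSO and 103.2 ± 31.0 CPM for Tpc + OL9-119 (SD, n = 3).

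MT-TP, the proline transfer RNA gene nearest the control region, had the same high and low WT groups. It was at 13.9, 10.5, 16.4 and 15.6 CPM without treatment, 10.4, 10.2, 19.1 and 17.1 CPM with DMSO and 13.9, 12.5, 10.5 and 11.2 CPM with Tpc. With OL9-119 it was at 0.538, 3.98, 1.27 and 1.23 CPM, and with Tpc + OL9-119 at 0, 2.37, 0.374 and 0 CPM. The highest library with OL9-119 stayed below the lowest without it. In PARP1-KO cells it was at 7.84, 12.2, 12.3 and 9.29 CPM without treatment, 8.20, 13.02, 1.96 and 6.54 CPM with DMSO and 9.35, 14.04, 10.7 and 8.91 CPM with Tpc. It was at 2.86, 1.29, 2.76 and 2.00 CPM with OL9-119 and at 2.64, 1.34, 10.5 and 2.52 CPM with Tpc + OL9-119. The values out of place, 1.96 CPM under DMSO and 10.5 CPM under Tpc + OL9-119, belong to the libraries labelled replicate 3 that went against their labels over nuclear genes.

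MT-TQ, the glutamine transfer RNA gene, showed the widest gap. In WT cells it was at 11.2, 12.4, 6.62 and 7.24 CPM without treatment, 11.3, 9.07, 16.3 and 12.99 CPM with DMSO and 11.2, 11.3, 10.4 and 12.5 CPM with Tpc. It was at 0.269, 0, 0.106 and 0.307 CPM with OL9-119 and at 0, 0, 0.249 and 1.65 CPM with Tpc + OL9-119, which in counts is 8 over each group of 4 libraries. In PARP1-KO cells it started lower, at 2.35, 2.41, 2.42 and 2.18 CPM without treatment, 2.15, 2.56, 0 and 1.43 CPM with DMSO and 1.76, 1.80, 2.86 and 2.97 CPM with Tpc. It was at 0.953, 0.194, 0.919 and 0 CPM with OL9-119 and at 0.528, 0.149, 1.75 and 0.0787 CPM with Tpc + OL9-119, where 0 and 1.75 CPM are again those of the doubted libraries.

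The sparse members are best read as counts over 4 libraries. MT-TA had 99, 36 and 34 counts in WT cells without treatment, with DMSO and with Tpc, and 0 in both WT groups with OL9-119. MT-TE had 63, 39 and 32 counts in the same 3 groups, 3 with OL9-119 and 0 with Tpc + OL9-119. MT-TY had 21, 21 and 7 counts, and 0 in both WT groups with OL9-119. In PARP1-KO cells MT-TA had 29, 17 and 26 counts, then 0 after OL9-119 alone and 10 after the combination, of which 6 came from the doubted library. MT-TE had 63, 26 and 40 counts, then 0 and 2, both of the latter from that library. MT-TS1, the serine transfer RNA gene, kept counts in every group, with 110, 35, 63, 48 and 17 in WT cells, treatments being in the order given at the start, and 27, 54, 37, 26 and 31 in PARP1-KO cells.

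OL9-119 alone against DMSO is the contrast for which MT-ND6, MT-TP and MT-TQ had been noted, and only sizes are given. In WT cells the log2 fold change was −1.39 (SE 0.229) for MT-ND6, −3.04 (SE 0.551) for MT-TP and −6.03 (SE 0.861) for MT-TQ, and 0.20 (SE 0.880) for MT-TS1. Over all 28922 genes, 1.15% passed the threshold in that contrast. The 12 heavy-strand messenger RNAs of WT cells were lower too, from −2.28 (SE 0.232) for MT-ND5 to −0.41 (SE 0.178) for MT-ND4L. MT-ND5 and MT-ND3 (−1.51, SE 0.208) had lower values than MT-ND6, so a fall of that size was not particular to the light strand. MT-TA and MT-TY, at 0, were at least 13.7-fold and at least 7.97-fold lower than with DMSO (floor of 3 counts over the group), and the MT-TE ratio was 0.0675 (3 against 39 counts, 95% interval 0.0134 to 0.212). In PARP1-KO cells the log2 fold changes were −0.65 (SE 0.227) for MT-ND6, −1.77 (SE 0.530) for MT-TP and −1.67 (SE 0.758) for MT-TQ, and 0.00346% of all genes passed. Without the doubted libraries these became −0.77, −2.09 and −2.07. With all libraries kept, the heavy-strand messenger RNAs of PARP1-KO cells ranged from −1.35 (SE 0.225) for MT-ND5 to 0.18 (SE 0.137) for MT-ND1. MT-TE and MT-TA, at 0, were at least 7.23-fold and at least 4.72-fold lower in PARP1-KO cells, or at least 9.01-fold and at least 5.89-fold without the doubted library. Against untreated cells, the WT log2 fold changes were −1.50, −3.03 and −5.62 and those of PARP1-KO cells −0.98, −2.25 and −2.25 for MT-ND6, MT-TP and MT-TQ, where 1.28% and 0.00346% of all genes passed. MT-TS1 was then at −0.96 (SE 0.866) in WT and at 0.32 (SE 0.906) in PARP1-KO cells.

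Adding OL9-119 to Tpc was tested in libraries other than those of the contrast that drew attention to the strand. The members were chosen with earlier results of these data known, so the test is not independent support for the genes noted. In WT cells MT-ND6, MT-TP and MT-TQ fell. These were 3 of the 8 members tested, where 0.18% of all genes tested passed in either direction and 0.0622% passed as lower. MT-ND6 changed by −1.74 on the log2 scale (SE 0.233, edgeR adjusted p = 1.69e-06), a 3.35-fold difference. MT-TP changed by −3.99 (SE 0.619, adjusted p = 4.27e-05), and MT-TQ by −5.20 (SE 0.863, adjusted p = 0.00019). The 4 libraries with OL9-119 lay below the 4 with Tpc for MT-ND6, MT-TP, MT-TQ and MT-TA, as they did for 2.61% of all genes tested. MT-TA, MT-TE and MT-TY, at 0 with the combination, were at least 9.85-fold, at least 9.27-fold and at least 2.03-fold lower and did not pass (adjusted p = 0.100, 0.164 and 0.448). MT-TS1 was at −1.35 (SE 0.922, adjusted p = 0.594). DESeq2 also called 3 members.

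The size of the transfer RNA changes rested on few counts, the 25 of MT-TP and 8 of MT-TQ left in the combination. Leaving out 1 library at a time gave −1.91 to −1.61 for MT-ND6, −6.47 to −3.46 for MT-TP, with the far end reached without WT Tpc + OL9-119 replicate 2, and −7.15 to −4.60 for MT-TQ, with the far end reached without WT Tpc + OL9-119 replicate 4. With the fit restricted to the 8 libraries compared, MT-TP gave −3.99 with an adjusted p of 0.0113 and no longer passed. The library names carry 3 prefixes, L01 to L03, and within them the log2 ratio of mean MT-ND6 CPM was −1.63, −1.60 and −1.82.

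In PARP1-KO cells the same comparison passed the threshold for 0 of the 8 members, as for 0% of all genes, while 4 members and 1186 genes had an unadjusted p under 0.05, and DESeq2 called 0 members and 1 gene in all. MT-ND6 was at −0.71 (SE 0.228), MT-TP at −1.36 (SE 0.505), MT-TQ at −1.96 (SE 0.729) and MT-TS1 at −0.33 (SE 0.887), each with an edgeR adjusted p of 1. MT-TE had 2 counts against 40, a ratio of 0.0488 (0.00572 to 0.188), and 0 without the doubted library, at least 10.8-fold lower. With no filter on low counts MT-ND6 passed, at −0.72 with an edgeR adjusted p of 8.65e-05, where 0.0107% of all genes did. Without the doubted libraries, MT-ND6 was at −0.76, MT-TP at −2.31 (SE 0.521, adjusted p = 0.217) and MT-TQ at −3.19 (SE 0.784, adjusted p = 0.485), while 0.00697% of genes passed. Within the prefixes the log2 ratio of mean MT-ND6 CPM was −0.39, −0.81 and −0.70, the value of L02 coming from the doubted library.

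The PARP1-KO change minus the WT change was tested in the same fit, with the Tpc dose differing between the genotypes. It was 1.03 (SE 0.322) for MT-ND6, 2.63 (SE 0.791) for MT-TP and 3.24 (SE 1.14) for MT-TQ, each with an edgeR adjusted p of 0.553, so 0 of the 8 members passed, where 0.00692% of all genes did. At an unadjusted p under 0.05 there were 4 members and 2307 of all genes, and DESeq2 called 0 members and 13 genes. Without the doubted libraries the differences were 0.99, 1.70 and 2.03. With no filter on low counts, MT-ND6 passed for this difference, at 1.03 with an edgeR adjusted p of 4.72e-05, where 0.0266% of all genes did. A different response of MT-ND6 in the genotypes thus depended on the filter and was not called in the fit described here.

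Tpc alone and DMSO alone left the members within their spread. In WT cells MT-ND6 was at −0.052 (SE 0.225) for Tpc against DMSO, and 0 members passed or had an unadjusted p under 0.05 by edgeR, and 0 by DESeq2, where 0.985% of all genes passed. In PARP1-KO cells MT-ND6 was at 0.077 (SE 0.226) and, without the doubted libraries, at −0.056 (SE 0.243), with 0 members at either level. Over all genes, 0% passed with all libraries kept and 0.0418% without the doubted libraries. DMSO against no treatment gave −0.11 (SE 0.224) for MT-ND6 in WT cells, where 0 members passed, 1 (MT-TN) had an unadjusted p under 0.05 and 0% of all genes passed. In PARP1-KO cells it gave −0.34 (SE 0.226), or −0.23 (SE 0.244) without the doubted library, with 0 members at either level. DESeq2 called 0 members in these comparisons. The sign of these small MT-ND6 values for Tpc and for DMSO in WT cells turned when single libraries were left out.

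The PARP1-KO clone differed from WT cells in MT-ND6 without any drug. Untreated PARP1-KO cells had 2.03-fold less MT-ND6 (log2 fold change −1.02, SE 0.227, edgeR adjusted p = 0.000514), and DMSO-treated ones 2.38-fold less (−1.25, SE 0.228, adjusted p = 2.53e-05). MT-TQ was lower with DMSO (−2.98, SE 0.686, adjusted p = 0.000793) and was at −1.996 without treatment (SE 0.660, adjusted p = 0.0252). In both settings the 4 PARP1-KO libraries lay below the 4 WT libraries for MT-ND6 and for MT-TQ, and without treatment for MT-TA as well, where 8.37% of all genes tested did so without treatment and 7.76% with DMSO. MT-TP was at −0.43 (SE 0.485, adjusted p = 0.573) without treatment and −0.92 (SE 0.491, adjusted p = 0.185) with DMSO, and its groups overlapped. MT-TS1 was at −2.31 (adjusted p = 0.0674) and −0.016 (adjusted p = 1). So 1 of 8 members passed without treatment and 2 of 8 with DMSO, where 11.7% and 12.4% of all genes passed, 5.74% and 5.75% as lower and 5.97% and 6.67% as higher. Without the doubted library the DMSO values were −1.14 for MT-ND6 (adjusted p = 0.000635), −2.59 for MT-TQ (adjusted p = 0.00334), −0.60 for MT-TP and −0.23 for MT-TS1, where 9.46% of genes passed.

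**Figure D2:**
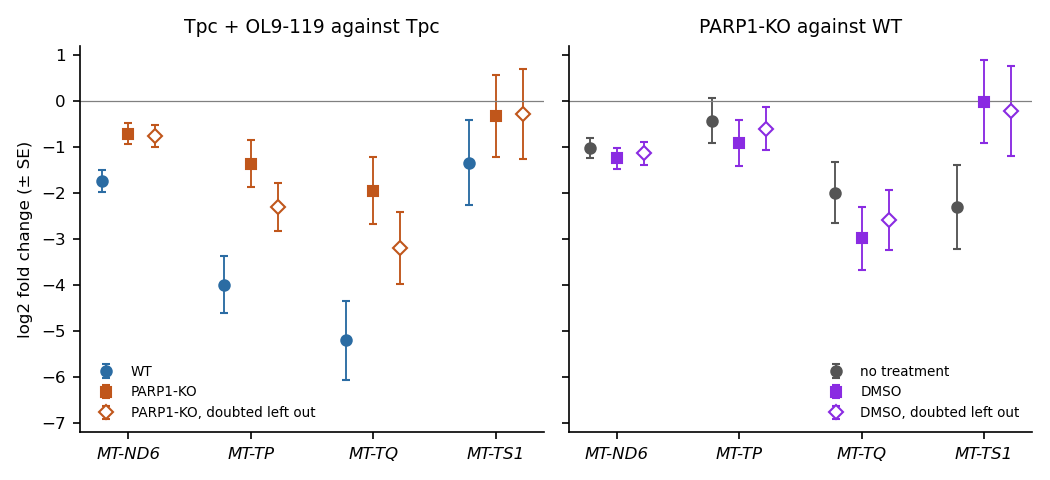
Log2 fold change with its SE of MT-ND6, MT-TP, MT-TQ and MT-TS1 for Tpc + OL9-119 against Tpc in each genotype (left) and for PARP1-KO against WT without treatment and with DMSO (right), open symbols leaving out the doubted libraries. On the left, WT points at −1.74, −3.99 and −5.20 lie below the PARP1-KO points at −0.71, −1.36 and −1.96, and the MT-TS1 error bars of PARP1-KO cells cross 0.

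Heavy-strand genes were lower in the PARP1-KO clone as well. Of the 12 heavy-strand messenger RNAs, 9 passed as lower without treatment (median log2 fold change −0.83, against 0.17 over all genes tested) and 10 with DMSO (median −1.04, against 0.19), among them MT-ND1 at −1.19 without treatment and MT-CO2 at −1.33 with DMSO. The large ribosomal RNA MT-RNR2 was at −0.59 without treatment and −0.58 with DMSO and passed both times. Without the doubted library 10 messenger RNAs were still lower with DMSO (median −1.08, against 0.18), where 4.38% of all genes passed as lower, with MT-CO2 at −1.25 and MT-RNR2 at −0.76. When library sizes were taken from the 12 heavy-strand messenger RNAs, which moved the median of all genes to 1.01 without treatment and 1.25 with DMSO, MT-ND6 was at −0.17 and −0.15 and no member passed. MT-TP then turned to 0.46 and 0.17. With those sizes and without the doubted library the DMSO values were −0.046 for MT-ND6 and 0.48 for MT-TP. Within the library prefixes, the untreated log2 ratio of mean MT-ND6 CPM was −0.77 in L01 and −1.34 in L02, L03 holding no untreated PARP1-KO library, and with DMSO it was −0.54, −1.10 and −1.57, where the PARP1-KO library of L02 is the doubted one.

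MT-ND5, the next gene on the opposite strand, moved with MT-ND6 after the combination. MT-ND5, another complex I subunit gene, fell by 1.74 on the log2 scale in WT cells with Tpc + OL9-119 against Tpc (SE 0.228, edgeR adjusted p = 1.08e-06). Of the 12 heavy-strand messenger RNAs, MT-ND5 and MT-CO2 (−0.63, SE 0.124, adjusted p = 0.00307) passed as lower, and the median was −0.30 against 0 over all genes. The small ribosomal RNA MT-RNR1 passed as higher at 0.98 (SE 0.190, adjusted p = 0.00295), as did 0.118% of all genes. None of the 6 heavy-strand transfer RNA genes tested passed by edgeR. In PARP1-KO cells 0 of the 12 messenger RNAs passed with all libraries kept, MT-ND5 was at −1.04 (SE 0.224, adjusted p = 0.558) and the median was −0.27. MT-ND5 was at 2139 CPM in the doubted library and at 548 to 711 CPM in the others of its group. Without the doubted libraries MT-ND5 passed, at −1.72 (SE 0.138, edgeR adjusted p = 3.78e-13), 1 of the 12 where 0.00348% of all genes passed as lower, and the median was −0.33. That p-value does not allow for the choice of the doubted libraries by genes that respond to OL9-119.

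**Figure D3:**
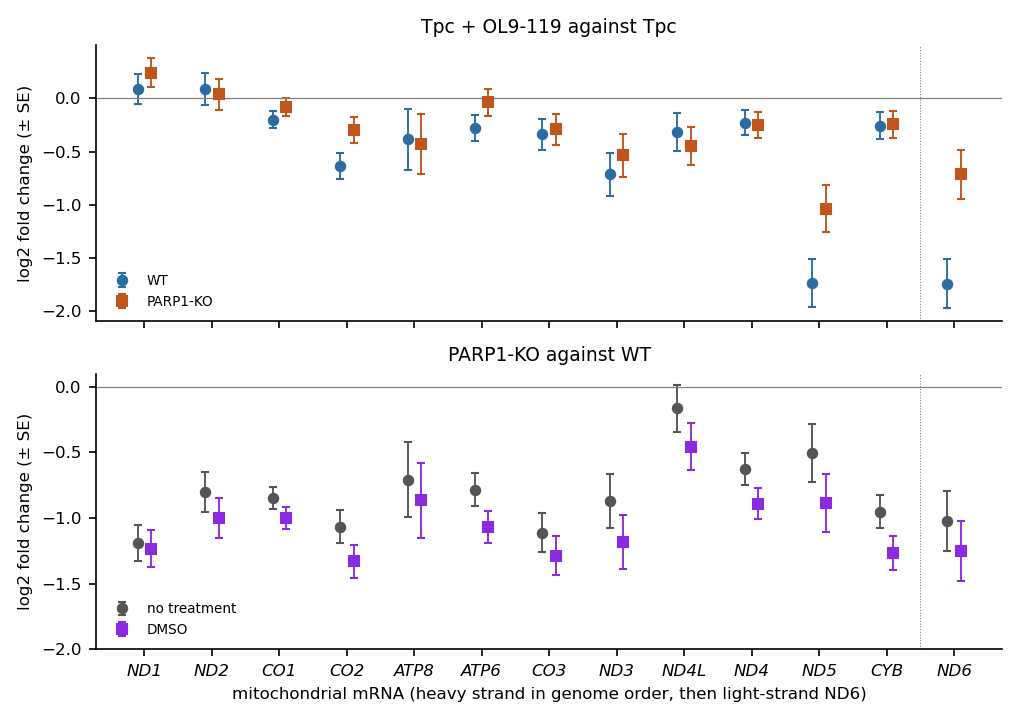
Log2 fold change with its SE of MT-ND6 and the 12 heavy-strand messenger RNAs in genome order, for Tpc + OL9-119 against Tpc (top) and PARP1-KO against WT (bottom). For the combination in WT cells MT-ND5 and MT-ND6 stand at −1.74 each and the remaining genes at −0.71 to 0.09, while for PARP1-KO against WT all 13 values lie below 0. All libraries were kept.

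The ratio of MT-ND6 to MT-ND5 per kilobase needs no library size. Its geometric mean was 0.544, 0.454 and 0.485 in WT cells without treatment, with DMSO and with Tpc, 0.883 with OL9-119 and 0.497 after the combination. In PARP1-KO cells it was 0.379, 0.383, 0.292, 0.575 and 0.431 in the same order, or 0.328 with DMSO and 0.563 after the combination without the doubted libraries. For Tpc + OL9-119 against Tpc the mean log2 ratio differed by 0.035 in WT cells (exact two-sided permutation p = 0.857, adjusted p = 0.943 over 8 comparisons) and by 0.56 in PARP1-KO cells (exact permutation p = 0.257, adjusted p = 0.914), or 0.95 without the doubted library. PARP1-KO against WT gave −0.52 without treatment (exact permutation p = 0.229) and −0.24 with DMSO (exact permutation p = 0.629), or −0.47 without the doubted library. None of the 8 comparisons passed, but none could at 0.01, the smallest p that 4 against 4 allows being 0.0286. The test therefore cannot show that the ratio was unchanged. For OL9-119 against DMSO, described only, the ratio was higher by 0.96 in WT and by 0.58 in PARP1-KO cells, or 0.81 without the doubted library.

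Set against the sum of the 12 heavy-strand messenger RNAs in place of MT-ND5, the log2 ratio of MT-ND6 differed between Tpc + OL9-119 and Tpc by −1.41 in WT cells and by −0.50 in PARP1-KO cells, or −0.49 without the doubted library. With all libraries each had the smallest exact permutation p, 0.0286, and an adjusted p of 0.114 over 8 comparisons. The share of light-strand counts among all counts on chromosome M had a median of 0.668% in WT cells without treatment, 0.549% with DMSO, 0.631% after Tpc, 0.351% after OL9-119 alone and 0.206% after the combination. In PARP1-KO cells the medians were 0.485, 0.374, 0.395, 0.204 and 0.254%, or 0.43% with DMSO and 0.221% after the combination without the doubted libraries.

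**Figure D4:**
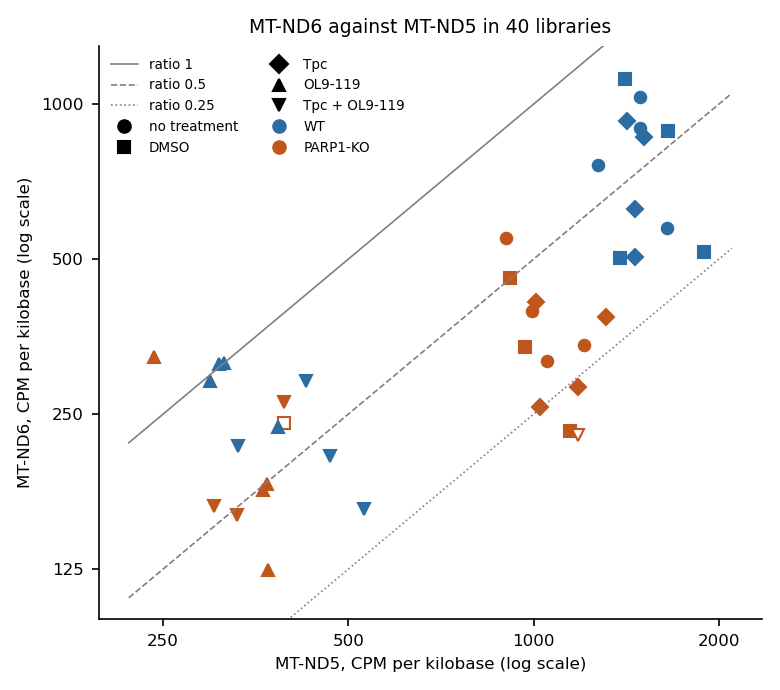
MT-ND6 against MT-ND5 in each of the 40 libraries, both as CPM per kilobase on log axes, with colour for genotype, shape for treatment, open symbols for the doubted libraries and grey guide lines of constant ratio. WT libraries that received OL9-119 lie at the low end of both axes, the group means of MT-ND5 per kilobase being 326 and 439 CPM, against 1464 to 1584 CPM in the other WT groups.

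Genes that make, process and use light-strand RNA were looked at in fixed lists. For Tpc + OL9-119 against Tpc, edgeR passed 0 of 18 genes of mitochondrial transcription and DNA maintenance, 0 of 21 of RNA processing and decay and 0 of 10 that charge the light-strand transfer RNAs, for either genotype, and for PARP1-KO also without the doubted libraries. Tpc alone in WT cells raised 1 of the 18, TWNK, the replicative helicase of mitochondria, by 0.88 on the log2 scale (SE 0.139, adjusted p = 1.83e-05), where 0.629% of all genes passed as higher. For PARP1-KO against WT the counts in the lists stand beside 5.74% of all genes lower and 5.97% higher without treatment, 5.75% and 6.67% with DMSO, and 4.38% and 5.08% with DMSO without the doubted library. Untreated PARP1-KO cells had 2 of the 18 higher, TOP1MT, the mitochondrial topoisomerase, at 0.76 and the nuclease MGME1 at 0.51, and 1 lower, MTERF2 at −0.86. With DMSO, 5 of the 18 were higher and none lower, among them TFB2M at 1.23, the polymerase POLRMT at 0.66 and TOP1MT at 0.66. Without the doubted library 3 were higher, with POLRMT at 0.80 and TOP1MT at 0.70, and TFB2M was at 1.15 (edgeR adjusted p = 0.0179) and no longer passed. In the list of RNA processing, 4 of 21 were lower and 1 higher without treatment, with FASTK at −1.24, the exonuclease REXO2 at −1.003 and HSD17B10, a subunit of mitochondrial RNase P, at −0.81. With DMSO, 4 were lower and 2 higher, with FASTK at −1.06 and PTCD2 at 0.92, and without the doubted library 4 were lower and 1 higher, with FASTK at −0.996 and PTCD2 at 0.76. Of the charging genes, 0 of 10 passed without treatment and 2 were lower with DMSO, GATB at −1.03 and NARS2, which charges the asparagine transfer RNA, at −0.61. Without the doubted library 1 was lower, GATB at −1.05, while NARS2 was at −0.51 (edgeR adjusted p = 0.0356).

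The genes whose level followed MT-ND6 most closely over the 40 libraries, with genotype means removed and among 12160 genes with a mean of at least 50 counts, were SNRPG (Pearson r = 0.836), HSPA1B (0.836), ATP5MC3 (0.823), MYL6 (0.818) and MT-TP (0.809). MT-ND5 ranked 21 at 0.751. These are descriptions across libraries that share treatments, library size scaling and depth, and carry no test.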

How the data were processed

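RNA sequencing of 40 HEK293A libraries was deposited as 1 table of raw read counts per gene. Per the labels and the study's methods, the authors made stranded poly(A) libraries, checked reads with FastQC 0.11.9, aligned them to hg38 with STAR 2.7.8, which also made the counts, and ran Picard 2.26.6. The strand column used was not given in the sources used here and was checked from the counts. The replicates are called biological in the labels and technical in the methods, so p-values measure the spread between these samples. The table held 0 columns of other samples. Lowest chi-square per degree of freedom between replicates of a group was 2.30, so none were duplicates.

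Rows whose 40 counts added up to 10 or more (28922 genes) were fitted in edgeR 4.0.16 (R 4.3.3) with TMM and the quasi-likelihood test, 1 coefficient per group, and Benjamini-Hochberg adjusted p under 0.01 was called. SE is the absolute log2 fold change over the square root of F. Ratios were compared by exact permutation (scipy 1.17.1). Intervals and floors (3 counts) cover counting error only. Gene positions came from GENCODE 44 (57754 IDs matched), and nuclear copies from BLAST 2.17.0. Scripts were tested on simulated data.

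The members and lists were chosen with earlier results of these data known. Named genes were the members, MT-ND5, PARP1, at most 3 called genes of each list per comparison by size, and the 5 genes most correlated with MT-ND6. Alternatives were DESeq2 1.42.0, RLE size factors, other filters and thresholds, nuclear or heavy-strand library sizes, library prefix, the replicate number as a block, the untreated comparator, single libraries left out and, added after seeing the data, both doubted libraries left out.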

Additional observations from a re-analysis of the deposited data

Results flagged for a closer look

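Of 40 sets of 4 values examined for a value far from the others, taken from several measures in the 10 groups of libraries, 4 had one. For independent normal values chance gives about 1 in 20. These sets share libraries and some hold counts of 0, so that rate is only a rough guide. The gap of that library to its nearest neighbour, as a share of the group's range, was above Dixon's 95% critical value in each. In WT cells with Tpc + OL9-119, MT-TP was at 2.37 CPM in replicate 2 and at 0 to 0.374 CPM in the others (gap 0.843), and MT-TQ was at 1.65 CPM in replicate 4 and at 0 to 0.249 CPM in the others (gap 0.849). In PARP1-KO cells with Tpc + OL9-119, MT-TP was at 10.5 CPM in the library labelled replicate 3, which went against its label over nuclear genes, and at 1.34 to 2.64 CPM in the others (gap 0.857). The log2 ratio of MT-ND6 to MT-ND5 in WT cells with OL9-119 was lowest in replicate 2 (gap 0.921), the library that also had the most MT-TP of its group, 3.98 CPM.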

How the results depend on the processing

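Each result was recomputed under the alternatives, 663 values for 44 results, of which 624 kept their direction and their side of the threshold or, without a test, moved by less than the replicate SD. With no filter on low counts, 1 member passed for Tpc + OL9-119 against Tpc in PARP1-KO cells (MT-ND6, −0.72, edgeR adjusted p = 8.65e-05) and 1 for the difference between genotypes (MT-ND6, 1.03, adjusted p = 4.72e-05), and the cause was not tested. For untreated PARP1-KO against WT, 2 members passed at an adjusted p of 0.05, with DESeq2, with no filter and with only the libraries compared (MT-TQ added each time), and 0 with library sizes from heavy-strand messenger RNAs, as with DMSO, where 0 passed. Those sizes scale to transcripts that also differ between the genotypes. They also turned MT-TP for PARP1-KO against WT to 0.46 without treatment and 0.17 with DMSO, and MT-ND6 for Tpc against DMSO to 0.23 in WT and −0.096 in PARP1-KO cells. In PARP1-KO cells that MT-ND6 value was −0.26 against untreated cells and −0.056 without both doubted libraries. Leaving out 1 library gave −0.056 to 0.30 for it, −0.20 to 0.20 for MT-ND6 with Tpc against DMSO and −0.36 to 0.035 with DMSO against no treatment in WT cells, and −0.46 to 0.10 for MT-TS1 with Tpc + OL9-119 against Tpc in PARP1-KO cells. With the sum of 12 heavy-strand messenger RNAs in place of MT-ND5, the ratio for Tpc + OL9-119 against Tpc turned to −1.41 in WT and −0.50 in PARP1-KO cells, and that for DMSO against no treatment in PARP1-KO cells to −0.25. Leaving out 1 library changed no count of members called.

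Replicate numbers were not used to pair the libraries. No comparison had every same-number correlation above 0.1 (lowest −0.220, highest 0.505), and at most 4 of 8 libraries correlated best with their own number. The mean same-number correlation ran from −0.0737 for PARP1-KO against WT with DMSO (0.0192 for other numbers) to 0.178 for Tpc against DMSO in PARP1-KO cells (−0.0521 for other numbers). Some pairing is therefore not excluded. With the replicate number as a block, the members called were 3 for Tpc + OL9-119 against Tpc in WT cells, 1 and 2 for PARP1-KO against WT without treatment and with DMSO, and 0 in the other comparisons, as without the block. Depth limits the transfer RNA genes, which had 0 to 38 counts in libraries with OL9-119 in WT cells.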
